A study of Gallus gallus with 24 samples.

Results

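The difference between 2 chicken growth lines in abdominal fat was followed from 1 wk to 5 wk of age. The cockerels belonged to lines of high growth (HG) or low growth (LG), bred from one meat-type population by selection in opposite directions on juvenile and adult body weight. On each array, RNA from 1 cockerel of either line was hybridised in 2 colours, the pair being matched in age. Of the 24 arrays of the time course, the 4 at 5 wk and the 4 at 1 wk were chosen by their labels, and the 16 arrays at 3, 7, 9 and 11 wk served to estimate the spread. The measurement is the log2 ratio of HG over LG, here called the line difference, and the change is its value at 5 wk minus its value at 1 wk. A negative change therefore means that HG stood lower against LG at 5 wk than at 1 wk. The ratio does not show which of the lines moved. All birds were fed cockerels that had been vaccinated against Marek's disease on hatching. HG and LG chicks were kept apart until 3 wk, with crushed pellets for LG, and were then penned together on a grower ration, so the age step cannot be told apart from the step in housing and feed.

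Abdominal fat stores triglyceride in adipocytes, and the same depot holds vessels, stroma and immune cells. Interferons are signals released when cells sense viral nucleic acid. They switch on antiviral proteins such as the OAS and MX families, and they also raise the machinery that loads peptides on major histocompatibility complex (MHC) class I molecules for display to T cells. Complement is a cascade of blood and tissue proteases. Its classical arm starts with C1q, C1r and C1s.

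Between 18074 and 18400 of the 19200 spots had a usable ratio on each of the 8 arrays, and the robust spread of the centred ratios was 0.325 to 0.494 at 5 wk and 0.388 to 0.572 at 1 wk. The labels and the methods make red the dye of the first listed bird, so the direction of every ratio is likely rather than certain, and every sign below would turn with it. In red over green, pairs of the 8 arrays correlated between 0.118 and 0.378 where the same line was in red, and between 0.018 and 0.408 where the lines were swapped. A line difference turns sign between swapped arrays on this scale, yet all 16 swapped pairs were positive. The dye was therefore kept as a term in the fit, and each age had both dye orientations on 2 arrays each. The 4 replicates of an age were different birds. Typical adipocyte genes were not called: ADIPOQ, the hormone adiponectin, stood at 0.05 at 5 wk and 0.02 at 1 wk on the log2 HG over LG scale, and FABP4, a fatty acid carrier, at 0.05 and 0.55. Of the others, PLIN1, PPARG and CD36 had lower means at 5 wk, but none of these changes had an unadjusted p under 0.05 in limma. PLIN1, a lipid droplet protein, stood at −0.42 and 0.05 (change −0.47, SE 0.25), with all arrays at 5 wk below those at 1 wk. PPARG stood at −0.44 and 0.01 (change −0.45, SE 0.28), and CD36 at −0.41 and 0.19 (change −0.60, SE 0.40). The CD36 arrays at 5 wk read −1.91, 0.50, −0.06 and −0.16, so its mean there leaned on replicate 1. Ratios do not show the level of these markers.

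Every called change ran one way. Of 16895 probes tested, 14 (0.0829%) had a lower line difference at 5 wk than at 1 wk at a Benjamini-Hochberg adjusted p under 0.05 in limma, and 0 had a higher one, while 3.71% had an unadjusted p under 0.05. Averaged to 6183 genes, 7 genes (0.113%) were called lower and 0 higher. Small p-values were as frequent upward as downward: of the 246 genes with an unadjusted p under 0.05 (3.98%), 123 (1.99%) were higher and 123 lower. The 7 called genes were OASL, RNF213, ERAP1, C1S, USP41, DRG2 and GPRC5C. In all 7 the 5 wk arrays lay wholly below the 1 wk arrays, which 59 of all genes (0.954%) did, with another 59 the other way. This split is the most that 4 arrays against 4 can show, with an exact two-sided permutation p of 0.0286 over 70 splits. The 7 genes were chosen on these same arrays, so neither the split nor this p adds support.

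**Figure D1:**
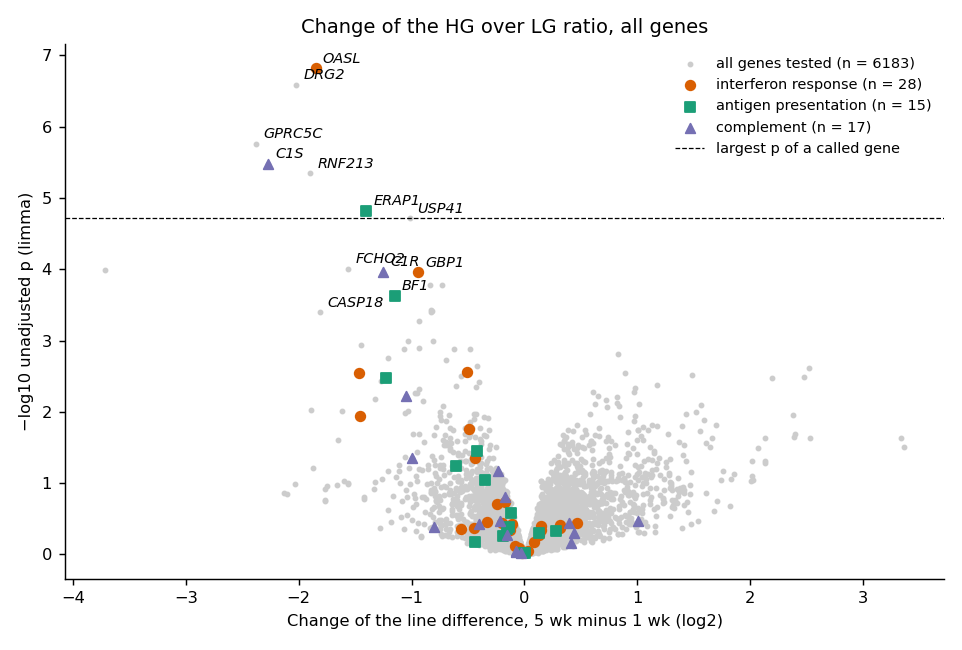
Each point is 1 of 6183 genes, with the change of the line difference (5 wk minus 1 wk, log2) on the x axis and −log10 of the unadjusted limma p on the y axis. Coloured points are the interferon, antigen presentation and complement lists. The 7 genes on or above the dashed line all lie on the negative side, and no gene on the positive side reaches the line.

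The sign of the line difference itself crossed zero in the called genes. Their median line difference was −1.20 at 5 wk and 0.76 at 1 wk. All 28 array values at 5 wk were below 0, and 26 of 28 at 1 wk were above 0. Over all 6183 genes the fitted mean was below 0 for 2479 at 5 wk and above 0 for 3141 at 1 wk. The 7 genes were chosen for a large change on these same arrays. Neither these signs nor passing a test at 5 wk alone therefore adds support. At 5 wk the single-age test called all 7 genes lower in HG, among 23 called lower (0.372%) and 0 called higher. At 1 wk it called 0 of 6183 genes (418 had an unadjusted p under 0.05), and the ordinary linear model also called 0. The HG excess at 1 wk was thus not called for any gene on its own, while the HG deficit at 5 wk was. Single probes were less one-sided. Of 16895 probes, 37 were called lower and 5 higher at 5 wk, and 0 were called at 1 wk. The other 16 genes called at 5 wk did not pass the test of the change. Several had the same sign at both ages, among them TIMP4, an inhibitor of matrix metalloproteinases (−1.81 at 5 wk and −1.21 at 1 wk), PCDH1, a protocadherin (−1.21 and −1.41), and SLCO2A1, a prostaglandin transporter (−1.13 and −0.60).

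**Figure D2:**
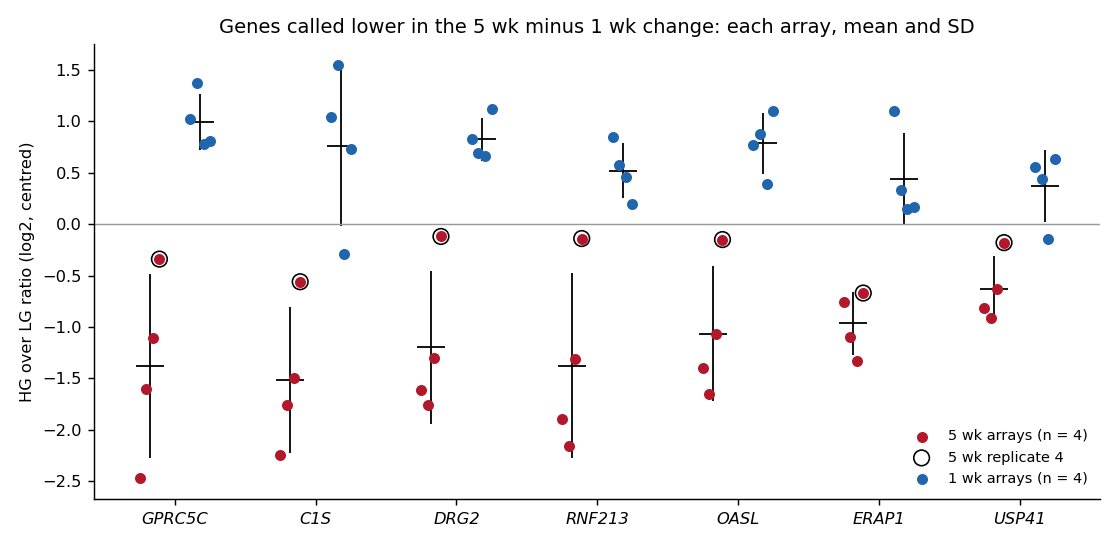
HG over LG ratio (log2, centred) of the 7 called genes, with the 4 arrays at 5 wk (left, red) and the 4 arrays at 1 wk (right, blue) of each gene, bars at the mean and lines for the SD of the arrays. No red point reaches the blue points of its gene, and the ringed 5 wk replicate 4 is the highest red point for each of the 7 genes.

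OASL, a relative of the 2'-5' oligoadenylate synthetases that acts in antiviral defence, had the smallest p of all genes. Its line difference was −1.40, −1.65, −1.07 and −0.15 on the arrays of 5 wk (replicates 1 to 4), against 0.77, 0.88, 0.39 and 1.10 on those of 1 wk. HG was lower than LG on every array at 5 wk and higher on every array at 1 wk. The change was −1.85 ± 0.23 (SE; adjusted p = 0.000794), with HG 2.10-fold lower at 5 wk and 1.72-fold higher at 1 wk. The 5 OASL probes did not move together. A pair of them changed by −4.86 and −3.96 (adjusted p = 0.000989 and 0.001), another by −0.72, and the remaining pair by 0.13 each, so the gene mean understates the probes that moved.

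RNF213, a large ubiquitin ligase that interferon induces in mammals, showed −1.89, −2.16, −1.31 and −0.14 at 5 wk and 0.85, 0.57, 0.46 and 0.20 at 1 wk. The groups did not overlap, and 5 wk replicate 4 sat close to 0. The change was −1.90 ± 0.30 (adjusted p = 0.00559). Its probes changed by −3.10 and −0.70. USP41, a ubiquitin-specific protease by name, gave −0.82, −0.91, −0.63 and −0.18 at 5 wk, against 0.56, 0.44, −0.14 and 0.63 at 1 wk. Its highest 5 wk array and its lowest 1 wk array were 0.04 apart. The change was −1.01 ± 0.18 (adjusted p = 0.0169), carried by probes at −1.90 and −1.68 beside others at −0.25 and −0.20.

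Of the 28 measured genes on the interferon response list, OASL was called lower and 0 were called higher. The median change of the list was −0.12, against 0.02 for all genes, with 19 members negative and 9 positive. This list and those below were chosen with earlier results of these data known, so their shares of small p-values are no test. A downward unadjusted p under 0.05 was seen for 7 members (25.0%, against 1.99% of all genes) and an upward one for 0. Besides OASL these were MX1, ZNFX1, GBP1, IFI35, ADAR and GBP4L. MX1, an antiviral GTPase, read −0.78, −0.94, −0.61 and 0.00 at 5 wk and 2.31, 0.17, 1.11 and −0.03 at 1 wk, so the groups overlapped at the edge (change −1.47 ± 0.43, adjusted p = 0.503). GBP1, a guanylate-binding protein, read −0.98, −1.28, −0.61 and −0.36 at 5 wk and 0.16, 0.02, −0.20 and 0.54 at 1 wk. The GBP1 groups did not overlap, and its change of −0.94 ± 0.19 missed the threshold (adjusted p = 0.061). One of the GBP1 probes was called on its own at −1.62 (adjusted p = 0.0174), while the other changed by −0.26.

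The remaining interferon members with small p-values had changes of −1.46 ± 0.52 (ZNFX1, an antiviral RNA helicase), −0.51 ± 0.15 (IFI35), −0.49 ± 0.19 (ADAR, an RNA-editing enzyme) and −0.44 ± 0.20 (GBP4L). The remaining 21 members had no unadjusted p under 0.05 in either direction. Among them, the transcription factors IRF1, IRF2, IRF7 and IRF9 changed by −0.20, 0.32, −0.05 and −0.45, the receptor chains IFNAR2, IFNGR1 and IFNGR2 by −0.01, 0.09 and 0.13, and the sensors IFIH1 and TLR3 by −0.24 and 0.47. The inducible genes XAF1 and PARP14 changed by −0.11 and −0.17. LY6E, an interferon-inducible surface protein outside the list, changed by −0.62 ± 0.16 (adjusted p = 0.314).

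Antigen presentation held the second called list member. ERAP1, the aminopeptidase that trims peptides for MHC class I, gave −0.76, −1.10, −1.33 and −0.67 at 5 wk, against 1.10, 0.33, 0.15 and 0.17 at 1 wk. All arrays at 5 wk were below 0 and all at 1 wk above it. The change was −1.40 ± 0.24 (adjusted p = 0.0155), and its probes read −1.49 and −1.31. Leaving out any 1 of 6 of the 8 arrays ended the calls of both ERAP1 and USP41 (adjusted p up to 0.102 and 0.114).

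B2M, the invariant subunit beside each class I heavy chain, gave −1.36, −0.72, −0.43 and −0.47 at 5 wk and 1.00, 0.66, 0.06 and 0.23 at 1 wk. The groups did not overlap, the 5 probes all fell by between 0.90 and 1.43, and the gene still missed the threshold (change −1.23 ± 0.37, adjusted p = 0.519). BF1, an MHC class I heavy chain, gave −0.99, −0.89, −0.62 and −0.48 at 5 wk and 0.77, 0.28, 0.77 and −0.20 at 1 wk. Its change was −1.15 ± 0.25 (adjusted p = 0.103). The related heavy chain BF2 is uncertain, since its 13 probes ran between −1.62 and 1.97 and class I chains are alike in sequence. TAPBP, the peptide-loading chaperone tapasin, had 1 called probe at −1.52 (adjusted p = 0.0403), and its gene mean of 4 probes was −0.61 ± 0.30 (adjusted p = 0.999).

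Over the 15 measured antigen presentation genes, 1 was called lower, 12 were negative and 3 positive, and the median change was −0.19. The class I peptide transporters TAP1 and TAP2 changed by 0.28 and 0.13, and the class II chain BLB1 by −0.01. CD74, the class II invariant chain, changed by −0.42 ± 0.19 (adjusted p = 0.999). A downward unadjusted p under 0.05 was seen for 4 of 15 (26.7%), namely ERAP1, BF1, B2M and CD74.

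**Figure D3:**
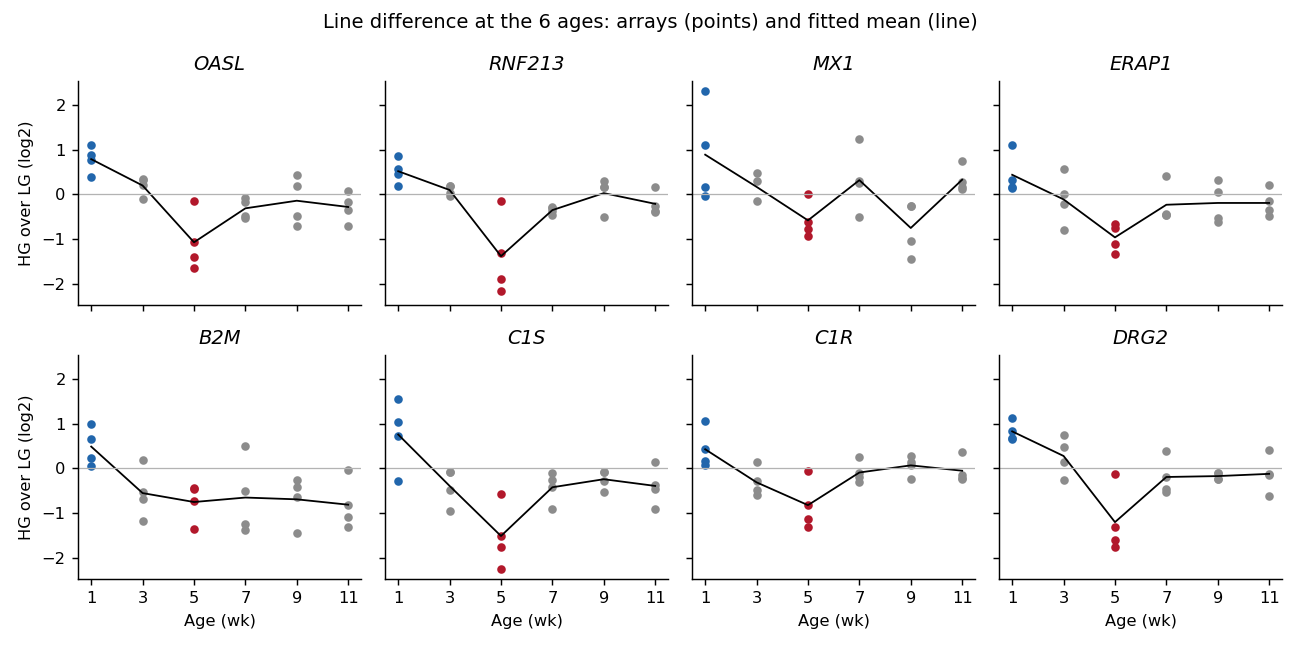
HG over LG ratio (log2) at the 6 ages for 8 genes, with each array as a point (1 wk blue, 5 wk red, other ages grey) and the fitted mean as a line. OASL, RNF213, C1S and DRG2 reach their lowest mean at 5 wk and lie nearer to 0 at 7, 9 and 11 wk, whereas B2M stays between −0.55 and −0.81 from 3 wk on.

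C1S, the protease that cleaves C4 and C2 at the start of the classical complement pathway, had the second largest fall among the called genes. It gave −2.24, −1.76, −1.50 and −0.56 at 5 wk, against 1.04, 1.55, −0.29 and 0.73 at 1 wk. The groups did not overlap, although 1 wk replicate 3 was below 0. HG was 2.86-fold lower at 5 wk and 1.69-fold higher at 1 wk, and the change was −2.27 ± 0.35 (adjusted p = 0.0051). Its probes all changed downward, by −3.24, −3.02 and −0.55, the first 2 of them called. C1R, the partner protease, is the next protein-coding gene to C1S on chromosome 1 in the RefSeq annotation of GRCg7b. It gave −1.30, −1.12, −0.81 and −0.05 at 5 wk and 0.43, 1.06, 0.16 and 0.08 at 1 wk. These groups did not overlap, and the change of −1.25 ± 0.26 narrowly missed the threshold (adjusted p = 0.061).

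Of 17 complement genes, 1 was called lower and 0 higher, 13 were negative and 4 positive, and the median change was −0.17. The downward unadjusted p-values under 0.05 (4 genes, 23.5%) were those of C1S, C1R, C4A and C1QC. Other members of the classical arm were near 0, with C2 at −0.07 ± 0.73 and C4, listed apart from C4A, at −0.15 ± 0.24. C4A, which C1s cleaves, gave −2.44, −0.78, −0.51 and −0.88 at 5 wk and 0.35, −0.11, −0.22 and −0.44 at 1 wk. HG was lower on all 4 arrays at 5 wk (mean −1.15, adjusted p = 0.0353 at that age), and at 1 wk the mean was −0.11 (change −1.05 ± 0.34, adjusted p = 0.702). C1QC, a chain of C1q, changed by −1.0 ± 0.47, and C1QB by −0.22. The central component C3 changed by −0.40 and the terminal component C7 by −0.80, neither with an unadjusted p under 0.05.

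DRG2, a developmentally regulated GTP-binding protein, and GPRC5C, an orphan G protein-coupled receptor, changed as much as the immune genes. DRG2 gave −1.61, −1.76, −1.30 and −0.12 at 5 wk, against 0.83, 0.69, 0.66 and 1.12 at 1 wk (change −2.02 ± 0.26, adjusted p = 0.000794). This rested on 1 of its 2 probes, which changed by −4.06 while the other changed by 0.02. GPRC5C, with 1 probe, gave −2.47, −1.60, −1.11 and −0.34 at 5 wk and 1.02, 1.37, 0.78 and 0.81 at 1 wk (change −2.38 ± 0.35, adjusted p = 0.00359), the largest fall among the called genes. FCHO2, an endocytosis protein, had the next smallest p among the falling genes (change −1.56 ± 0.32, adjusted p = 0.061).

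The position of these spots is a measured fact to set beside them. Of the 14 called probes, 6 lay at the position with last index 13 within their block, a position that holds 5.39% of the probes tested, and so did 11 of the 49 probes with an unadjusted p under 0.001. The called ones were those of DRG2 and GPRC5C, 1 of OASL and 3 without a gene symbol, all in blocks 33 and above. The 303 probes at this index in those blocks had a median change of −0.038, a value that does not show what happened at single spots. Block 35, 1 of 48 blocks, held 2 of the 14 called probes, those of DRG2 and GPRC5C. Among the 49 probes with an unadjusted p under 0.001 it held 8, including probes of ERAP1, FCHO2 and IFI35. The FCHO2 probe also lay at index 13. The part of spot position in the calls was not tested. Without all spots at index 13, 7 probes and 5 genes were still called, all lower, and DRG2 read 0.02. GPRC5C, whose only probe lies at this index, could not be fitted there. This alternative was chosen after seeing the data.

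**Figure D4:**
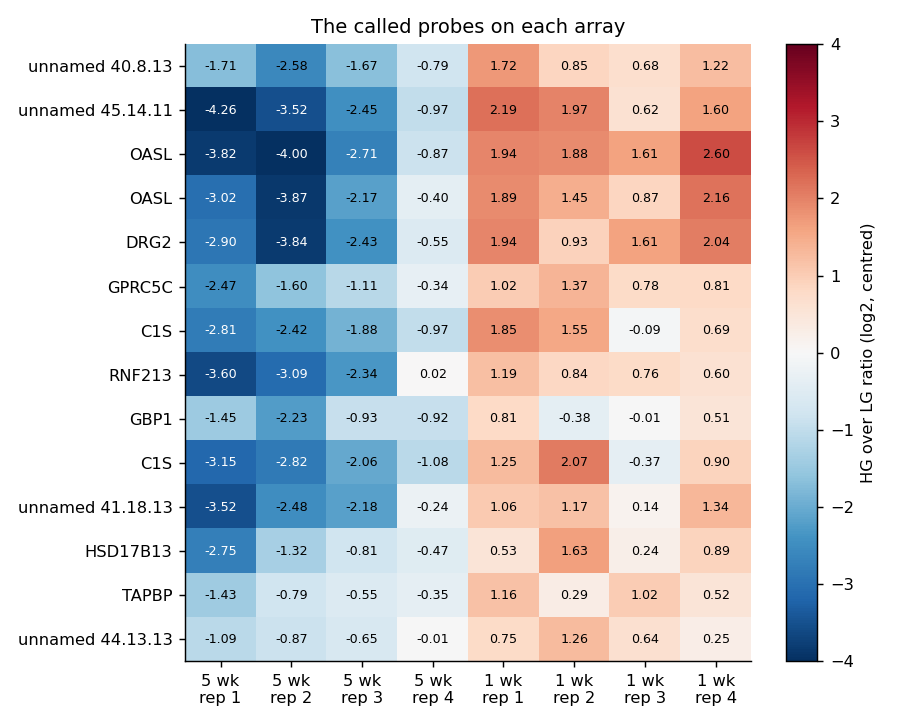
HG over LG ratio (log2, centred; blue lower and red higher in HG) of the 14 called probes, in order of p, on the 4 arrays at 5 wk (left) and the 4 at 1 wk (right). Of the 56 values, 55 are below 0 at 5 wk and 52 of 56 are above 0 at 1 wk, and 5 wk replicate 4 is the palest 5 wk column throughout. The probes were called on these same arrays, so these signs add no support.

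The arrays of one age differed in size of effect. At 5 wk, replicate 4 was the closest to 0 for all 7 called genes and all 14 called probes. At 1 wk, replicate 3 was the lowest for 6 of the 7 genes and 9 of the 14 probes. Without 5 wk replicate 4, 40 probes and 17 genes were called, all lower, and the 17 included all 7. Among the 10 further genes were C1R, FCHO2, GBP1, BF1, CASP18, HSD17B13 and IL6ST. In the fit of only the 8 arrays of these ages, 0 probes and 0 genes passed (270 genes had an unadjusted p under 0.05, and the smallest adjusted p was 0.275). The calls thus rest on the spread estimated over all 24 arrays. With the dye term removed, the SD of the 5 wk arrays was 0.98 for GPRC5C, 0.90 for RNF213, 0.69 for DRG2 and 0.63 for OASL. At 1 wk these SDs were 0.36, 0.28, 0.24 and 0.18. For C1S, ERAP1 and USP41 they were 0.64, 0.46 and 0.31 at 5 wk and 0.71, 0.40 and 0.31 at 1 wk. A spread shared by all ages can understate the error of genes whose 5 wk arrays vary more.

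Probes without a gene symbol were among the strongest. Probe 45.14.11 gave −4.26, −3.52, −2.45 and −0.97 at 5 wk, against 2.19, 1.97, 0.62 and 1.60 at 1 wk (change −4.39 ± 0.55, adjusted p = 0.000989). Probe 41.18.13 gave −3.52, −2.48, −2.18 and −0.24 at 5 wk and 1.06, 1.17, 0.14 and 1.34 at 1 wk (change −3.04 ± 0.51, adjusted p = 0.0174). In all, 4 of the 14 called probes had no symbol, and the other 10 belonged to 8 genes. HSD17B13, a lipid droplet enzyme of the hydroxysteroid dehydrogenase family, had 1 called probe at −2.16 (adjusted p = 0.0197), with its other probes at −0.35 and 0.43.

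At the ages outside this comparison the called genes were closer to 0. Their choice for a large change between 1 wk and 5 wk favours this by itself. Their median line difference was 0.76 at 1 wk, 0.10 at 3 wk, −1.20 at 5 wk, −0.23 at 7 wk, −0.14 at 9 wk and −0.19 at 11 wk. For OASL the fitted means were 0.79, 0.20, −1.07, −0.31, −0.14 and −0.28 in the same order of ages. B2M, which was not called, read 0.49, −0.55, −0.75, −0.65, −0.69 and −0.81, so its mean was below 0 from 3 wk on. A step from 1 wk to 3 wk was not tested. Of the called genes, C1S and ERAP1 were also below 0 at 3 wk (−0.39 and −0.11), and the others were above it. A later age step in arrays that the comparison did not use, the mean of 7, 9 and 11 wk minus 3 wk, called 0 of 6183 genes (196 had an unadjusted p under 0.05, and the ordinary linear model also called 0). The 14 called probes had a median of −0.261 in that step, against 0.0265 for all probes, and 13 of 14 were negative. All 14 were read on the same arrays, and the 10 of them with a gene symbol belong to 8 genes. They are therefore not 14 independent observations. Of all 16895 probes, 7502 were negative in that step. OASL changed by −0.44 there and DRG2 by −0.44 (adjusted p = 1 for both).

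Each end of the change was also set against the mean of 3, 7, 9 and 11 wk, a comparison added after seeing the data. OASL was −0.93 ± 0.18 from that mean at 5 wk (adjusted p = 0.065) and 0.92 ± 0.18 from it at 1 wk (adjusted p = 0.109). RNF213 was −1.27 ± 0.24 at 5 wk and 0.63 ± 0.24 at 1 wk (adjusted p = 0.065 and 0.965), and C1S −1.15 ± 0.28 and 1.12 ± 0.28 (adjusted p = 0.133 and 0.338). Neither end called a gene by itself (0 of 6183 each, with 420 and 315 genes at an unadjusted p under 0.05). For OASL and C1S both ends lay about equally far from the other ages. Genes called for this change were chosen with their ends apart, so these distances add no support.

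No gene with a rising line difference was called. The 8 with the smallest p are given as values. TM2D1, a membrane protein, gave 0.92, 1.75, 1.53 and 0.55 at 5 wk, against −1.03, −1.63, −0.94 and −1.74 at 1 wk, without overlap (change 2.52 ± 0.71, adjusted p = 0.484). GPSM1, a modulator of G protein signalling, gave 0.34, −0.01, −0.06 and 0.87 at 5 wk and −0.88, −0.94, −0.19 and −0.17 at 1 wk, also without overlap (change 0.83 ± 0.23, adjusted p = 0.357). STK17B, an apoptosis-related kinase, changed by 2.48 ± 0.72, with only 3 arrays measured at 1 wk, and the unnamed locus LOC421232 by 2.2 ± 0.65. The changes of EVI2B, PARD3B, WDR77 and MAPK4 were 1.49 ± 0.43, 1.18 ± 0.36, 0.98 ± 0.31 and 0.89 ± 0.26. The standard errors of TM2D1 and STK17B were about 3 times the median of 0.23 over all genes.

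No gene on the lipid lists was called in the test over genes. Over 22 genes of fatty acid and triglyceride synthesis the median change was −0.04, with 14 negative and 8 positive. SCD, the stearoyl-CoA desaturase, was higher in HG on all 8 arrays. It gave 0.45, 1.59, 0.71 and 0.65 at 5 wk and 0.85, 0.75, 0.53 and 0.97 at 1 wk. Its change of 0.08 had a 95% confidence interval of −0.67 to 0.83, which still allows sizeable changes in either direction. FASN, fatty acid synthase, gave −0.23, 0.28, 0.02 and −0.34 at 5 wk and 0.77, 0.71, 0.41 and −0.18 at 1 wk, with overlap (change −0.50 ± 0.19, adjusted p = 0.999). ACSL1, which activates fatty acids, changed by −0.80 ± 0.49, and GPAM, the first acyltransferase of glycerolipid synthesis, by 1.33 ± 1.05.

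PNPLA2, the adipose triglyceride lipase, gave −1.94, −1.67, −1.96 and −1.53 at 5 wk, against −0.06, −0.57, −0.66 and −0.72 at 1 wk. HG was lower on all 8 arrays, the ages did not overlap, and HG was 3.42-fold lower at 5 wk (adjusted p = 0.00284 at that age). The change of −1.27 ± 0.38 was not called (adjusted p = 0.552), and the mean was −1.61 at 7 wk and 0.18 at 9 wk. G0S2, an inhibitor of that lipase, changed by −0.76 ± 0.42. TGM2, transglutaminase 2, was likewise lower in HG on all 8 arrays, with means of −1.39 at 5 wk and −0.65 at 1 wk and means from −0.92 to −1.19 at the other 4 ages (change −0.74 ± 0.27, adjusted p = 0.961). MED27, a Mediator subunit, had means of −1.44 and −2.14 (change 0.70 ± 0.70, adjusted p = 0.999). SCD, PNPLA2, TGM2 and MED27 thus kept the sign of their mean line difference at both ages, while FASN, with means of −0.07 and 0.43, did not. The called genes also changed sign, but they were chosen for a large change.

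The other lists had no called member. Their median changes ran from −0.13 for 50 extracellular matrix genes (38 negative, 12 positive) to 0.14 for 41 cytosolic ribosomal proteins (30 positive, 10 negative). Extracellular matrix had 4 downward p-values under 0.05 (8.0%, against 1.99% of all genes), including FN1, fibronectin, at −0.97 ± 0.31 (adjusted p = 0.667), and the next largest changes on the list were those of POSTN, periostin, at −0.95 ± 0.54 and COL15A1, a collagen chain, at 0.94 ± 0.69. Ribosomal proteins had 3 upward p-values under 0.05 among 41 genes, against 1.99% of all genes. They were led by RPL3 at 0.63 ± 0.21 (adjusted p = 0.806), and the largest change on this list was that of RPL4 at 0.70 ± 0.38. With LG in red, the array medians of this list were 0.70 and 0.41 at 5 wk and 0.35 and 0.30 at 1 wk. With HG in red they were −0.02 and −0.17 at 5 wk and −0.13 and −0.03 at 1 wk, so the ages overlapped. The median of 36 proteasome genes was 0.09, with PSMC2 at 0.82 ± 0.26 and PSMB2 at 0.66 ± 0.25. The median of 39 nuclear genes of oxidative phosphorylation was 0.06, that of 35 cell cycle genes 0.12 and that of 19 adipocyte differentiation genes −0.08. DNAJA1, a heat shock cochaperone, gave −0.45, −0.56, 0.17 and −0.69 at 5 wk and 0.39, 0.47, 0.32 and 0.53 at 1 wk, without overlap (change −0.81 ± 0.21, adjusted p = 0.296).

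**Figure D5:**
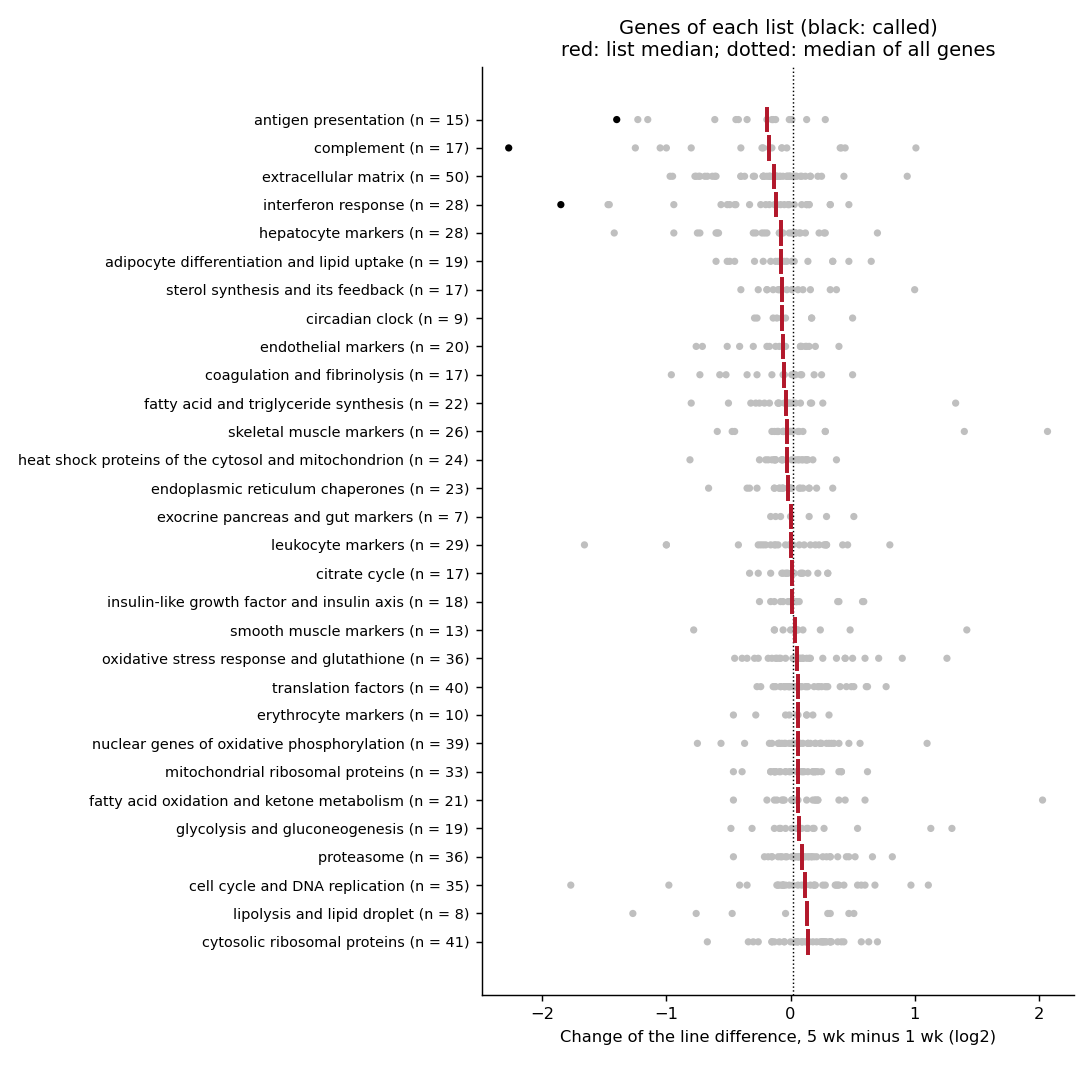
Change of the line difference (5 wk minus 1 wk, log2) of each measured gene (points; black where called) in 30 lists, with the list median as a red bar and the median of all genes, 0.02, as a dotted line. List medians lie between −0.19 and 0.14, and the called members are in the antigen presentation, complement and interferon lists.

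In the remaining lists, many of the single genes with the largest changes had large errors too, though CYP51A1 of the sterol list did not. Among metabolic genes, ACAA1 of peroxisomal fatty acid oxidation changed by 2.03 ± 1.12, ACOX3 by 0.60 ± 0.66, the glycolytic HK2 by 1.13 ± 0.60, FBP2 of gluconeogenesis by 1.30 ± 0.78, and HMOX1, haem oxygenase, by 1.26 ± 0.63. HMOX1 gave 0.12, 0.56, 0.05 and −0.20 at 5 wk and −2.26, −0.66, −0.53 and −1.07 at 1 wk, without overlap, yet its adjusted p was 0.999. Sterol genes were split, with ACAT2 at 1.00 ± 0.41 and CYP51A1 at −0.40 ± 0.12. In the insulin and growth factor list FOXO1 changed by 0.59 ± 0.34 and PIK3R1 by 0.58 ± 0.51, and in the clock list CSNK1D by 0.50 ± 0.35 and PER2 by −0.29 ± 0.28. In the cell cycle list SMC2, a condensin subunit, changed by −1.77 ± 1.24 and CDKN1A, a cell cycle inhibitor, by 1.11 ± 0.82. Among genes of the respiratory chain ATP5J2 changed by 1.10 ± 0.51 and NDUFA11 by −0.75 ± 0.38, and in the citrate cycle ACO1 by −0.33 ± 0.27 and FH by 0.30 ± 0.52. The coagulation list had A2M, a protease inhibitor, at −0.96 ± 0.72 and FGA, a fibrinogen chain, at −0.73 ± 0.83.

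Protein synthesis and folding gave changes of the same kind, none of them called. EIF4E and EIF3E, translation initiation factors, changed by 0.77 ± 0.40 and 0.62 ± 0.34, and RPL10A by −0.67 ± 0.88. The mitochondrial ribosomal proteins MRPS36 and MRPS2 changed by 0.62 ± 0.32 and −0.46 ± 0.28. The chaperones HSP90B1 and CANX of the endoplasmic reticulum changed by −0.66 ± 0.29 and −0.35 ± 0.20, and CCT6A of the cytosolic chaperonin by 0.37 ± 0.36. GPX7, a glutathione peroxidase family member, changed by 0.90 ± 0.83. In the adipocyte list RXRA, a nuclear receptor, changed by 0.65 ± 0.91 and CD36, a fatty acid transporter, by −0.60 ± 0.40.

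Markers of other cells were compared on the same scale, as log2 HG over LG. The 29 leukocyte markers had a median change of 0.00, with 15 negative and 14 positive, and 0 were called. Of these, 3 had a downward unadjusted p under 0.05 (10.3%, against 1.99% of all genes), namely C1QC, CD74 and LYG2, and 0 an upward one. The median of the 29 markers per array ranged from −0.01 to 0.03 at 5 wk and from 0.01 to 0.18 at 1 wk. CD3E of T cells, ITGB2 of leukocytes in general and CSF1R of macrophages changed by 0.16, 0.00 and −0.20. The largest leukocyte changes were those of AVD (avidin) at −1.66 ± 0.98 and LYG2, a lysozyme, at −1.0 ± 0.47. CD74 is also on the antigen presentation list and C1QC on the complement list. The 20 endothelial markers had a median of −0.06, with SOX18 at −0.76 ± 0.52 and CDH5 at −0.71 ± 0.38. Hepatocyte-type genes had a median of −0.08 over 28 genes, with array medians of −0.76 to −0.03 at 5 wk and −1.21 to 0.67 at 1 wk. The largest change among them was that of ALB, albumin, at −1.42 ± 0.96. Among muscle markers MYOM2, a sarcomere protein, changed by 2.07 ± 0.90 and MYH1E by 1.40 ± 1.73, and the smooth muscle genes MYH11 and LMOD1 changed by 1.42 ± 0.92 and −0.78 ± 0.56. ITIH2, made mainly by liver, changed by −0.94 ± 1.02, the red cell genes HBBA and ANK1 by −0.46 ± 0.31 and 0.31 ± 0.34, and the pancreatic proteases CTRC and CELA1 by 0.51 ± 0.21 and 0.29 ± 0.30. The part of these cells in the called changes was not tested. Fewer cells of a type and less RNA per cell cannot be told apart in whole tissue.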

How the data were processed

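Abdominal fat RNA of 1 HG and 1 LG cockerel per slide was hybridised to 24 2-colour cDNA arrays (4 at each of 6 ages, dyes balanced). The deposited values are spot-wise log2 ratios, red to green, which the authors obtained by scanning and GenePix image analysis with poor spots removed; the array medians show that they are not centred, so the LOWESS normalization of the authors' own analysis is not in them. That analysis subtracted no background; whether the same holds for the deposited ratios is not given in the sources used here. A probe identifier in the annotation has its last 2 numbers in the opposite order to the value table: read so, annotated spots lacked a value on 0.621 of the arrays on average, against 1.837 for other spots. Probes of the same gene then correlated at a mean of 0.043 over 2634 pairs, against 0.01 over 2454 pairs in the order given. The gene names rest on this order, and probes of one gene were little alike. Spot brightness is not used here. Dim spots were therefore not marked out, and dye bias that varies with brightness was met only by the dye term. The number of arrays limits the precision.

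Values above 16.6, a ceiling, were set to missing. Each array was centred on its median and turned to HG over LG. Probes with 3 or more values at each age were fitted in limma 3.58.1 (R 4.3.3) with 6 age coefficients and a dye coefficient, and p-values were adjusted by Benjamini-Hochberg over all probes or all genes, threshold 0.05. A gene is the mean of its probes. STUB1, whose name stood on 95 spots, was left out. The fitting code was tested on simulated data. Genes named are those called (or the 8 with the smallest p in a direction), the called members and 2 largest changes of each list, the unnamed called probes with the largest changes, and SCD, FASN, TGM2, MED27 and PNPLA2 (IGF1, also on that rule, was not among the genes tested). ZNFX1, GBP1, BF1, LY6E, TAPBP, HSD17B13 and others described beside them were chosen after their values were seen. Members and lists were chosen with earlier results of these data known. The alternatives tried were the centring, the scaling, the dye and replicate terms, the variance model, array weights, the filters, 1 probe per gene, and leaving out each array. SEs are those of the limma fit.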

Additional observations from a re-analysis of the deposited data

Results flagged for a closer look

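The change itself was a tested difference between the ages for 7 genes: GPRC5C (−2.38), C1S (−2.27), DRG2 (−2.02), RNF213 (−1.90), OASL (−1.85), ERAP1 (−1.40) and USP41 (−1.01). A screen for arrays on opposite sides of 0 covered only the other genes chosen for naming. In 5 of them every array at 5 wk lay on one side of 0 and every array at 1 wk on the other. These were TM2D1 (2.52, adjusted p = 0.484 in limma), MAPK4 (0.89, 0.503), WDR77 (0.98, 0.614), B2M (−1.23, 0.519) and C1R (−1.25, 0.061). They did not pass the adjusted test, so their difference is not established. Many genes were named for a small p or a large change, and the share of all genes with this pattern was not counted. The looser pattern of ages without overlap held in 59 of 6183 genes (0.954%) in each direction.

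One array lay far from the other 3 of its age in 8 of 149 sets of 4 arrays (5.37%). Chance alone gives about 1 in 20. At 5 wk these were EIF3E, a translation initiation factor, at 1.67 in replicate 1, CDH5, vascular cadherin, at −1.64 in replicate 1, and PIK3R1, a phosphoinositide 3-kinase subunit, at 1.43 in replicate 4. At 1 wk they were ACAA1 at −3.52, POSTN at 3.08 and HBBA, a haemoglobin chain, at 0.15 in replicate 2, and EIF4E, the cap-binding factor, at −2.27 and MED27 at −2.89 in replicate 1.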

How the results depend on the processing

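Among the called genes, OASL and DRG2 turned sign in refits that left out their moving probes. The others stayed negative in every refit that held them. GPRC5C, whose only probe lies at index 13, was absent from the refit without those spots. The count of 14 probes became 23 without centring, 44 with scaling between arrays, 24 with array weights, 0 with only the 8 arrays, 7 without the spots at index 13 (added after seeing the data), and 6 to 40 with 1 array left out. The count of 7 genes became 12 without centring, 20 with scaling, 0 with only the 8 arrays, 3 with 1 probe per gene, and 5 to 17 with 1 array left out (17 without 5 wk replicate 4). Scaling raised the 5 wk count of 23 genes to 68. With 1 probe per gene, 4 of the 7 called genes kept arrays that did not overlap. The probe counts without 1 wk replicates 1, 2 and 4 were 7, 7 and 9, and without 5 wk replicates 1 and 2 they were 6 each. Without centring the median change of all genes was −0.116, against 0.0155. The replicate number in place of the dye term (replicate block) gave 13 probes, 7 genes and 22 genes at 5 wk. Deviations of same-numbered arrays of the 2 ages correlated between −0.0326 and 0.0785, so the numbers were not read as pairs. Signs turned for OASL (0.13, 1 probe per gene, a probe that had not moved), DRG2 (0.02, without index 13), SCD (−0.06 uncentred) and FH (−0.21 with 1 probe per gene, and the same on probes without a missing array). With 1 array left out, SCD ran from −0.13 to 0.21, FH from −0.10 to 0.60, FGA from −1.66 to 0.18, ITIH2 from −1.91 to 0.31 and RPL10A from −1.53 to 0.46, their signs turning without 5 wk replicate 2, 1 wk replicate 1, 1 wk replicate 3 (FGA and ITIH2) and 5 wk replicate 4. RNF213 lost its call without the missing-spot filter (−1.04, adjusted p = 0.532), and ERAP1 without the dye term (−1.40, adjusted p = 0.0807) and on probes without a missing array (−1.31, adjusted p = 0.14). With 1 probe per gene, RNF213 (−0.70), ERAP1 (−1.31) and USP41 (−0.20) were not called. The causes were not tested. The number of arrays limits the precision, with a median SE of the change of 0.23 per gene.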
